A study of Mus musculus with 6 samples.

Results

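The genes described here are those that cells switch on in response to interferon and those that sense viral RNA or carry the interferon signal. The list held 43 genes, 13 for sensing and signalling and 30 effectors, and was drawn up by function, with earlier results of these data known. A gene was measured when the platform annotation paired a row of the array with that gene alone, and of several such rows the brightest was taken. This left 41 of the 43 genes, all 13 of the sensing and signalling class and 28 of the 30 effectors, among 22180 genes measured in the same way on 41345 rows. Ifi35 had 2 such rows and the other 40 genes had 1. Gbp2 lay on a row shared with another gene and Ifi44 had no row of its own, so that both were not analysed here.

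The cells were immortalized brown adipogenic cells (iBACs), a murine line that turns into brown adipocytes on induction. One group (siAspa, 3 arrays) carried lentiviral shRNA particles against Aspa, the enzyme that cleaves N-acetylaspartate, and the other (ntc, 3 arrays) carried particles with a nontargeting control construct. Both groups had been infected and selected with G418, then induced with 3-isobutyl-1-methylxanthine (IBMX), dexamethasone, insulin, triiodothyronine and indomethacin, kept in insulin and triiodothyronine, and harvested on day 7. The knock-down rested on a single shRNA construct in a single cell line, so that an effect of reduced Aspa and other differences between siAspa and ntc cells cannot be told apart, and no uninfected cells were analysed here.

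Type I interferons bind the receptor chains IFNAR1 and IFNAR2, whose kinases JAK1 and TYK2 activate STAT proteins, among them STAT2. STAT2 and IRF9 are parts of a complex that binds the interferon-stimulated response element (ISRE) in the promoters of antiviral genes. The RNA sensors RIG-I (Ddx58) and MDA5 (Ifih1) act upstream, through IRF3 and IRF7, on interferon production itself, and their own genes are interferon targets as well. Adipocytes express the receptor and respond to interferon, and many of the effector genes keep a basal level in cells that have met no virus.

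The promoters of 7 members that carry an ISRE core are shown first, and were chosen to hold both members with the lowest and members with near-zero log2 fold changes. Each line gives the 160 bases just before the transcription start from RefSeq (mouse build GRCm38.p6), written 5′ to 3′ on the strand of the gene. Capitals mark the ISRE core (GAAA, 2 bases of any kind and GAAA again), which reads TTTC, 2 bases of any kind and TTTC where it lies on the opposite strand, and overlapping cores run together.
Rsad2: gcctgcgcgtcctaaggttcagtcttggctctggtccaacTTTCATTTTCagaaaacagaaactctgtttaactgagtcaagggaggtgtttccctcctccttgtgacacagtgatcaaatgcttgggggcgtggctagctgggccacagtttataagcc
Oas3: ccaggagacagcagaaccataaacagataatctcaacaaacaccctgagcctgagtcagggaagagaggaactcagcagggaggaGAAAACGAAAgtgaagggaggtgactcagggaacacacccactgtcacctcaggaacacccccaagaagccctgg
Ifit1: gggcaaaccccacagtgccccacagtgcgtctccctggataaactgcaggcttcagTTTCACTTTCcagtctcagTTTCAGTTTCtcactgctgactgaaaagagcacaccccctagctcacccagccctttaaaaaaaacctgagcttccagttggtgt
Igtp: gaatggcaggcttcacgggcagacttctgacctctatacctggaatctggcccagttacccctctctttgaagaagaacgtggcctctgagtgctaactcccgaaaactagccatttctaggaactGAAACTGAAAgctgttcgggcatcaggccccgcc
Irgm1: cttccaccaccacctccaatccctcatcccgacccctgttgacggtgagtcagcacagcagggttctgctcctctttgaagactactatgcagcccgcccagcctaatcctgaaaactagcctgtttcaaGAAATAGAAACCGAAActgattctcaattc
Isg15: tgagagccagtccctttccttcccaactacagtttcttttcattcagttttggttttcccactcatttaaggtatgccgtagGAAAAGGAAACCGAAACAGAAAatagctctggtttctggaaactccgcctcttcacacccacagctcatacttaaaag
Bst2: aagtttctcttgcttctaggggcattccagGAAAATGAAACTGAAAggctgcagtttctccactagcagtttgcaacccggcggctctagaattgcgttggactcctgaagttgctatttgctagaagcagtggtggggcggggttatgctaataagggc

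The Rsad2 sequence (chr12:26456453-26456612, minus strand) had 1 core, beginning 120 bases before the start, and that of Oas3 (chr5:120777660-120777819, minus strand) had 1 at 75 bases. Ifit1 (chr19:34640729-34640888, plus strand) had 2 separate cores at 104 and 85 bases, and Igtp (chr11:58199396-58199555, plus strand) had 1 at 34 bases. Overlapping cores stood in the sequences of Irgm1 (2 cores, chr11:48871421-48871580, minus strand), Isg15 (3 cores, chr4:156200819-156200978, minus strand) and Bst2 (2 cores, chr8:71537473-71537632, minus strand). RefSeq windows of 300 bases, 250 before and 50 after the start, were at hand for 34 of the 41 measured members and not for Dhx58, Mx1, Mx2, Oas2, Parp9, Parp14 and Usp18. The ISRE core, searched on both strands, stood in 17 of the 34, against 3.99% of the 27025 genes in the table, and the related GAS core TTCNNNGAA in 13 of the 34, against 9.55% of genes. Both cores were found in 6 members, and a GAS match can share bases with an ISRE match. The windows of Oasl1 and Oasl2 held neither. The median log2 fold change (siAspa over ntc) of the 17 members with the ISRE core was -0.13, with a range of -0.62 to 0.11, and that of the 17 without it was -0.09, with a range of -0.43 to 0.23, so that the ranges of both sets overlapped over most of their length.

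Signals are on the log2 scale, as the authors computed them by robust multi-array averaging (RMA). The array medians lay between 5.78 and 5.85, and 40 of the 41 members (all but Ifitm1) lay above the median signal of all rows. Aspa itself was lower in siAspa cells, at 7.14 ± 0.26 in siAspa and 8.82 ± 0.24 in ntc cells (SD, n = 3 arrays each, log2 fold change -1.68, adjusted p = 0.0343 from limma). Each replicate was a passage of its own, per the submitters, and the p-values reflect no more than the spread among these 6 arrays. On array ntc 2, 35 of the 41 members lay above their ntc mean (median deviation 0.10), whereas on array ntc 3, 29 of 41 lay below it (median deviation -0.07). Over all genes these shares were 49.5% and 48.4%, so that both control arrays stood apart for the interferon genes and not for genes at large. Values without 1 of these arrays are given where they moved a result most.

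The log2 fold changes of the interferon genes were mostly small and negative. Rsad2 (-0.62), Oas3 (-0.44) and Oasl1 (-0.43) had the lowest values and Irf9 (0.23) the highest, while Isg15, Usp18, Oasl2 and the immunoproteasome genes Psmb8 and Psmb9 lay close to 0. No member passed the test. With limma and Benjamini-Hochberg adjustment over all rows, 0 of 41 members were lower and 0 of 41 higher in siAspa cells at an adjusted p under 0.05, where 0.0992% and 0.189% of all genes (0.0726% and 0.116% of all rows) were. At an unadjusted p under 0.05, 12 members had a negative and 1 a positive log2 fold change, against 6.17% and 6.87% of genes (29.3% of the members on the negative side). All 3 siAspa arrays lay below all 3 ntc arrays for 15 members, among them the 12 just counted, and above them for 1, where 9.99% and 12.6% of genes did so. Counted only among the 13526 genes above the median signal, these background shares were 8.57% and 8.91% for the unadjusted p and 13.3% and 16.5% for arrays that do not overlap. A negative log2 fold change was found for 31 of 41 members (75.6%) and for 45.5% of genes (44.8% of those above the median signal). The median over the members was -0.09, against 0.02 over all genes, and 19 members had a log2 fold change within 0.1 of 0 (plot of log2 fold changes by role).

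**Figure D1:**
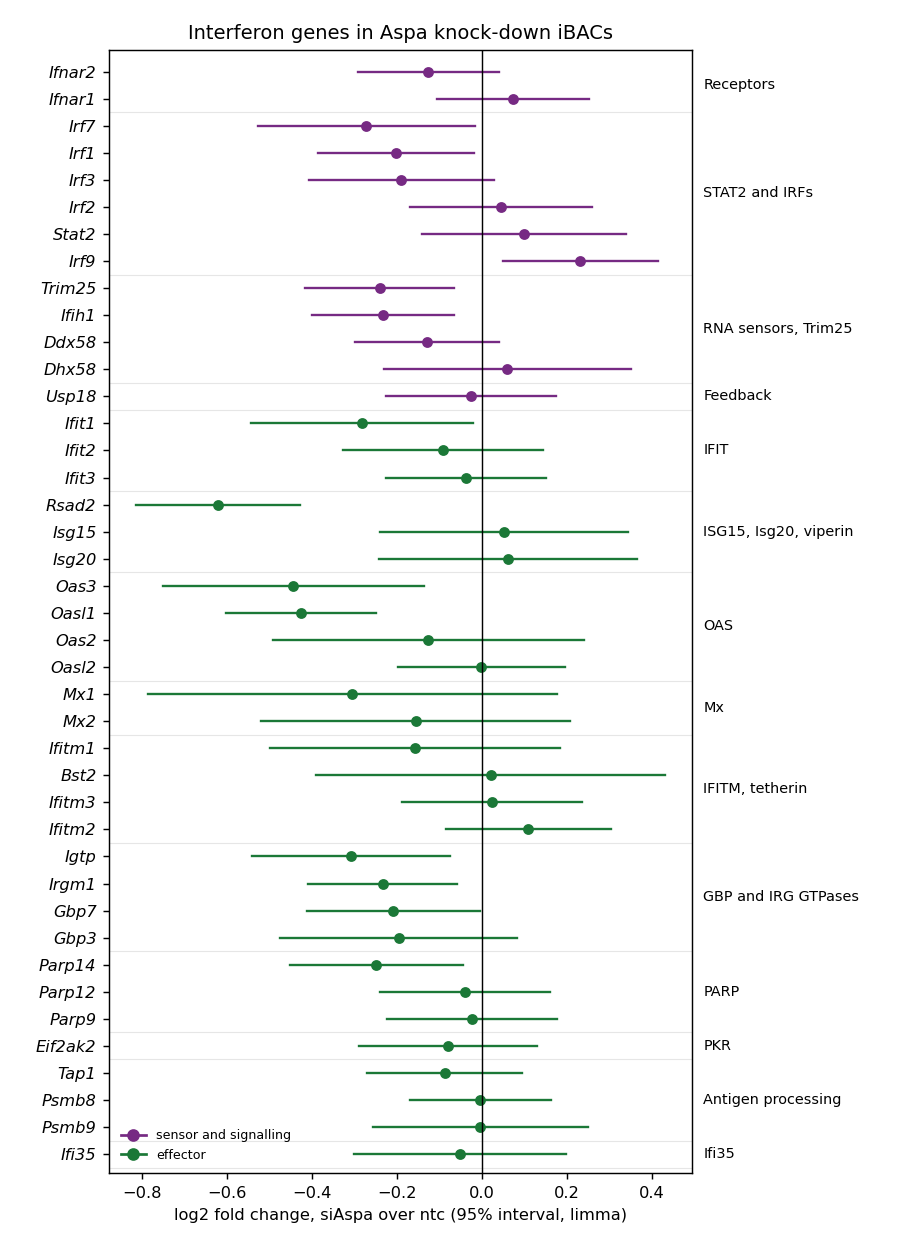
Log2 fold change of each of the 41 measured interferon genes, siAspa over ntc (x axis), grouped by role, with points for the estimate, lines for the 95% interval from limma, and colours for the 2 classes. Of the 41 points 31 lie left of 0, Rsad2 stands farthest left at -0.62, and Irf9 farthest right at 0.23.

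These figures rested in part on array ntc 2. Without it the median over the members was -0.01 and 22 members had a negative log2 fold change, and 5 had an unadjusted p under 0.05 on the negative side, against 5.85% of genes in the same fit. Without ntc 3 the median was -0.13, with 35 negative and 14 below an unadjusted p of 0.05 on the negative side, against 5.73% of genes. This count was 7 without siAspa 2, against 4.61% of genes. The number of members whose siAspa arrays all lay below the ntc arrays was 16 without ntc 2 (14.9% of genes) and 23 without ntc 3 (14.8% of genes). It was between 15 and 18 when any other array was left out, with 13.6% to 14.6% of genes. The arrays are bulk samples, in which fewer cells of a kind and less RNA per cell cannot be told apart.

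Rsad2 encodes viperin, a radical SAM enzyme that makes an antiviral nucleotide, and stood at the lower end of the members. Its signal was 10.16, 10.10 and 10.13 on the siAspa arrays, against 10.75, 10.86 and 10.66 on the ntc arrays. The groups were far apart relative to their spread, with 10.13 ± 0.03 in siAspa and 10.75 ± 0.10 in ntc cells (SD, n = 3 each). The difference of -0.62 (standard error 0.08, 95% interval -0.81 to -0.43) was a signal 1.54 times smaller in siAspa cells, with an adjusted p of 0.0608 from limma, just above the threshold. By unadjusted p it ranked 95 among the 41345 rows. It passed under 4 of 14 other settings, with adjusted p of 0.0125 with a robust prior, 0.0133 with rows above the median signal only, 0.00793 with single-gene rows only and 0.0432 with array weights. Without any 1 array it did not pass, and over the 14 settings its adjusted p ran up to 0.251 while the log2 fold change stayed between -0.67 and -0.57.

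The OAS family makes oligoadenylates that activate RNase L, or, in the OAS-like proteins, acts by other means. Oasl1, which in mice restrains translation of Irf7, had a signal of 9.25, 9.17 and 9.12 on the siAspa arrays, against 9.57, 9.64 and 9.61 on the ntc arrays. Its groups did not overlap, and their distance was large against a spread of 0.06 (siAspa) and 0.03 (ntc, SD). The log2 fold change was -0.43 (standard error 0.07, 95% interval -0.60 to -0.25), with an adjusted p of 0.103 from limma. It passed under 3 of the 14 other settings, at 0.0271 with the robust prior, 0.0263 with rows above the median signal only and 0.0256 with single-gene rows only, and its adjusted p ran up to 0.338 over all of them.

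Oas3, a large OAS enzyme with several repeats of the synthetase unit, had a signal of 7.64, 7.43 and 7.35 on the siAspa arrays, against 7.69, 7.99 and 8.07 on the ntc arrays. The arrays siAspa 1 and ntc 1 lay next to each other and the others were well separated. The log2 fold change was -0.44 with a standard error of 0.13, and the adjusted p was 0.255. Oasl2, an OAS-like protein that kept its enzyme activity in mice, had 11.88, 11.81 and 11.82 on the siAspa arrays, against 11.72, 11.92 and 11.88 on the ntc arrays. Its arrays interleaved, and its log2 fold change of -0.0011 had a 95% interval of -0.20 to 0.20. For Oas2 the value was -0.13 with overlapping arrays. The 4 members of the family thus ran from -0.44 to near 0, with a median of -0.28.

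**Figure D2:**
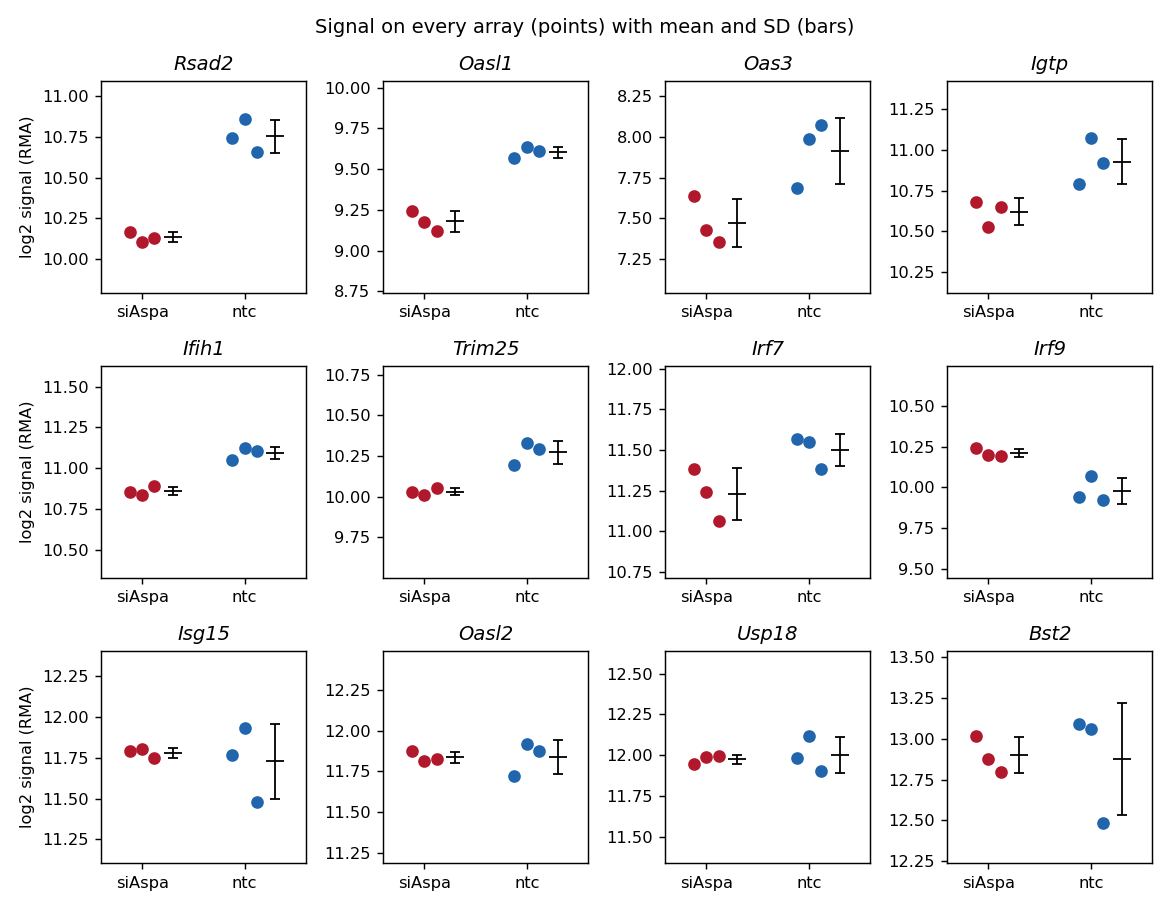
Log2 signal on every array for 12 interferon genes (y axis, the same span of 1.3 log2 units in each panel), siAspa left and ntc right, with points for the arrays and bars for mean and SD. Rsad2 and Oasl1 show separated groups, Irf9 is the gene with siAspa above ntc, and Isg15, Oasl2, Usp18 and Bst2 overlap, with ntc arrays spread more widely than siAspa arrays.

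Among the receptors and transcription factors the values ran in both directions. Irf9, the DNA-binding part of the ISRE complex, was the only member with all siAspa arrays above all ntc arrays, at 10.24, 10.20 and 10.19 on the siAspa arrays, against 9.94, 10.07 and 9.92 on the ntc arrays. The log2 fold change was 0.23 (standard error 0.08, 95% interval 0.05 to 0.41), and it did not pass the adjustment (adjusted p = 0.313, limma). Stat2, its partner in the complex, had 11.07, 10.98 and 10.92 on the siAspa arrays, against 10.93, 11.02 and 10.72 on the ntc arrays. Its arrays overlapped, with a log2 fold change of 0.10 and an interval of -0.14 to 0.34 (0.16 without ntc 2 and 0.02 without ntc 3).

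Irf7, which amplifies interferon production, had 11.38, 11.24 and 11.06 on the siAspa arrays, against 11.57, 11.55 and 11.39 on the ntc arrays. Arrays siAspa 1 and ntc 3 lay almost level, and the log2 fold change was -0.27 (standard error 0.11, adjusted p = 0.398). Irf1 and Irf3, which induce interferon and antiviral genes, also had all siAspa arrays below the ntc arrays, with log2 fold changes of -0.20 and -0.19, whereas Irf2, known as an antagonist of Irf1, had 0.05 with overlapping arrays. The receptor chain Ifnar1 had 10.45, 10.50 and 10.59 on the siAspa arrays, against 10.40, 10.47 and 10.45 on the ntc arrays. These overlapped (log2 fold change 0.07, interval -0.11 to 0.25), and the other chain, Ifnar2, had a log2 fold change of -0.13 without overlap and an adjusted p of 0.561.

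Of the 3 RNA sensors and the ubiquitin ligase Trim25, which acts on RIG-I, all but Dhx58 had every siAspa array below every ntc array. Of all genes 9.99% did so, and 13.3% of those above the median signal. Ifih1 (MDA5, a sensor of long double-stranded RNA) had 10.86, 10.84 and 10.89 on the siAspa arrays, against 11.05, 11.13 and 11.10 on the ntc arrays. Its spread within groups was small, and the log2 fold change was -0.23 (standard error 0.07, adjusted p = 0.269). Trim25 had 10.03, 10.01 and 10.05 on the siAspa arrays, against 10.19, 10.33 and 10.29 on the ntc arrays. The 3 siAspa arrays lay close together, and the log2 fold change was -0.24 (standard error 0.07, adjusted p = 0.28). Ddx58 (RIG-I) had a log2 fold change of -0.13 and an adjusted p of 0.558. Dhx58 (LGP2, which modulates both other sensors) had 9.35, 9.43 and 9.49 on the siAspa arrays, against 9.46, 9.52 and 9.11 on the ntc arrays. Only array ntc 3 lay apart, below all others. The log2 fold change was 0.06 with an interval of -0.23 to 0.35, and -0.07 without ntc 3. Usp18, a protease that removes ISG15 from proteins and damps signalling at Ifnar2, had 11.94, 11.99 and 11.99 on the siAspa arrays, against 11.98, 12.12 and 11.90 on the ntc arrays. Its arrays overlapped, with a log2 fold change of -0.03 and an interval of -0.22 to 0.17.

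The interferon-inducible GTPases act on membranes around intracellular pathogens. The 4 measured members had negative log2 fold changes between -0.31 and -0.20, with a median of -0.22. For 3 of them every siAspa array lay below every ntc array. This held for 9.99% of all genes and 13.3% of those above the median signal. For 7 relatives outside the member list (Gbp4, Gbp5, Gbp6, Gbp8, Gbp9, Iigp1 and Irgm2) the values ran from -0.53 (Gbp5) to 0.03 (Gbp8), with a median of -0.13 and 6 negative, and 3 of them (Gbp4, Gbp6 and Gbp8) did not exceed the median signal of all rows. Igtp had 10.68, 10.53 and 10.65 on the siAspa arrays, against 10.79, 11.07 and 10.92 on the ntc arrays. Array ntc 2 was the highest, and the log2 fold change was -0.31 (standard error 0.10, adjusted p = 0.294). Irgm1, of the same immunity-related GTPase family, had 8.96, 8.91 and 8.87 on the siAspa arrays, against 9.10, 9.20 and 9.13 on the ntc arrays. Its groups were separated by more than their spread, at -0.23 on the log2 scale (standard error 0.07, adjusted p = 0.291). Gbp7, the brightest of the group, had 11.50, 11.49 and 11.52 on the siAspa arrays, against 11.68, 11.85 and 11.62 on the ntc arrays. Again the groups did not overlap (log2 fold change -0.21, adjusted p = 0.419), while those of Gbp3 did (-0.20).

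Ifit1, which binds viral RNA that lacks host cap methylation, had 11.73, 11.73 and 11.64 on the siAspa arrays, against 11.86, 12.20 and 11.88 on the ntc arrays. Array ntc 2 lay well above the other ntc arrays, and the log2 fold change was -0.28 (standard error 0.11, adjusted p = 0.392). Without ntc 2 it was -0.17. Its relatives Ifit2 and Ifit3 had -0.09 and -0.04 with overlapping arrays. Mx1 and Mx2, dynamin-like GTPases that trap viral particles, had the widest spread among ntc arrays of the effector groups. Mx1 had 6.26, 6.09 and 6.42 on the siAspa arrays, against 6.60, 6.94 and 6.14 on the ntc arrays. The 3 ntc values enclosed the 3 siAspa values except for siAspa 2, and the log2 fold change of -0.30 had an interval of -0.79 to 0.18. It was -0.12 without ntc 2 and -0.51 without ntc 3, where the unadjusted p was 0.0151 and the adjusted p 0.317 (limma). Mx2 had 8.16, 8.05 and 8.17 on the siAspa arrays, against 8.19, 8.62 and 8.03 on the ntc arrays. Array ntc 2 was the highest and ntc 3 the lowest of the 6, with an interval of -0.52 to 0.21 around a log2 fold change of -0.16. Without ntc 2 it was 0.01 and without ntc 3 -0.28.

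Several of the best known effector genes differed by less than the spread of their control arrays. Isg15, the ubiquitin-like modifier, had 11.79, 11.81 and 11.75 on the siAspa arrays, against 11.77, 11.94 and 11.48 on the ntc arrays. Array ntc 2 was the highest and ntc 3 the lowest of the 6, and the log2 fold change was 0.05 (interval -0.24 to 0.34), or 0.16 without ntc 2 and -0.07 without ntc 3. Isg20, an RNA exonuclease, had 8.91, 8.70 and 8.79 on the siAspa arrays, against 8.84, 8.89 and 8.48 on the ntc arrays, again with ntc 3 below all other arrays (log2 fold change 0.06, interval -0.24 to 0.37, and -0.07 without ntc 3). Bst2, or tetherin, which holds budding virus at the cell surface, had 13.02, 12.88 and 12.80 on the siAspa arrays, against 13.09, 13.06 and 12.48 on the ntc arrays. Array ntc 3 again was the lowest, and the interval of -0.39 to 0.43 around 0.02 was among the widest. Without ntc 3 the log2 fold change was -0.18.

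The IFITM proteins block fusion of viruses with cell membranes. Ifitm2 had 8.43, 8.32 and 8.41 on the siAspa arrays, against 8.37, 8.20 and 8.26 on the ntc arrays. Its arrays overlapped at a log2 fold change of 0.11 (interval -0.09 to 0.30), the second highest of all members after Irf9. Ifitm3 had 0.02 and Ifitm1, the only dim member, -0.16, both with overlap. Eif2ak2 (PKR), a kinase that stops translation on double-stranded RNA, had 10.83, 10.80 and 10.73 on the siAspa arrays, against 10.73, 10.96 and 10.91 on the ntc arrays. The groups overlapped, with an interval of -0.29 to 0.13 around -0.08.

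Of the poly(ADP-ribose) polymerase family, Parp14 had a log2 fold change of -0.25 (SE 0.09, adjusted p = 0.328) with no overlap, and Parp9 had -0.02. Parp12, the brightest of them, had 11.15, 11.28 and 11.25 on the siAspa arrays, against 11.19, 11.37 and 11.24 on the ntc arrays. These overlapped throughout (log2 fold change -0.04, interval -0.24 to 0.16). The genes of antigen processing differed little. Psmb8, a catalytic subunit of the immunoproteasome, had 10.89, 10.86 and 10.90 on the siAspa arrays, against 10.89, 10.92 and 10.84 on the ntc arrays. All 6 values lay within a narrow band, and the interval of the log2 fold change was -0.17 to 0.16. Psmb9, its partner subunit, had a log2 fold change of -0.0029 (the sign of this value, and of those of Psmb8, Oasl2 and Bst2, turned under another scaling of the arrays), and the peptide transporter Tap1 had -0.09. Ifi35 had 10.41, 10.39 and 10.42 on the siAspa arrays, against 10.53, 10.59 and 10.25 on the ntc arrays, overlapping through ntc 3 (log2 fold change -0.05, interval -0.30 to 0.20, and -0.15 without ntc 3).

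Set side by side, the sensing and signalling genes and the effector genes had similar medians and different ranges. The 13 sensing and signalling genes had a median log2 fold change of -0.13, from -0.27 to 0.23, with 8 negative and 5 positive. The 28 measured effector genes had a median of -0.09, from -0.62 to 0.11, with 23 negative and 5 positive. The effector median was -0.01 without ntc 2 and -0.16 without ntc 3, where the signalling median was -0.14 and -0.11. The siAspa arrays lay below the ntc arrays without overlap for 7 of 13 signalling and 8 of 28 effector genes, and above them for 1 and 0. Over all genes these shares were 9.99% below and 12.6% above, and 13.3% and 16.5% among genes above the median signal. At an unadjusted p under 0.05 there were 4 negative and 1 positive signalling genes and 8 negative and 0 positive effector genes. Of all genes 6.17% were negative and 6.87% positive at that p (8.57% and 8.91% of those above the median signal). In both classes 0 passed the adjusted p of limma, where 0.0992% of genes were lower and 0.189% higher.

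The medians of the signals in each class were also read on every array. For the sensing and signalling genes they were 10.24, 10.20 and 10.19 on the siAspa arrays, against 10.26, 10.33 and 10.29 on the ntc arrays. For the effectors they were 10.26, 10.16 and 10.15 on the siAspa arrays, against 10.45, 10.61 and 10.31 on the ntc arrays. In both classes no siAspa median exceeded an ntc median, and the ntc medians of the effectors were spread over a wider range. Such medians depend on the genes of middle signal, and Rsad2 (mean signal 10.44) lay near the middle of the effectors. The summed signal of the effectors (log2 of the sum) overlapped, at 15.54 to 15.59 on siAspa and 15.51 to 15.78 on ntc arrays. Array ntc 3 was the lowest there. For the sensing and signalling genes the sums did not overlap, at 14.21 to 14.24 on siAspa and 14.25 to 14.36 on ntc arrays. The difference between the class medians of the log2 fold change (signalling minus effector) was -0.04, and it is another quantity than the distance between these medians of signals. It was -0.12 without ntc 2 and 0.05 without ntc 3, so that leaving out ntc 3 turned its direction. This is a description, since genes are not replicates.

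**Figure D3:**
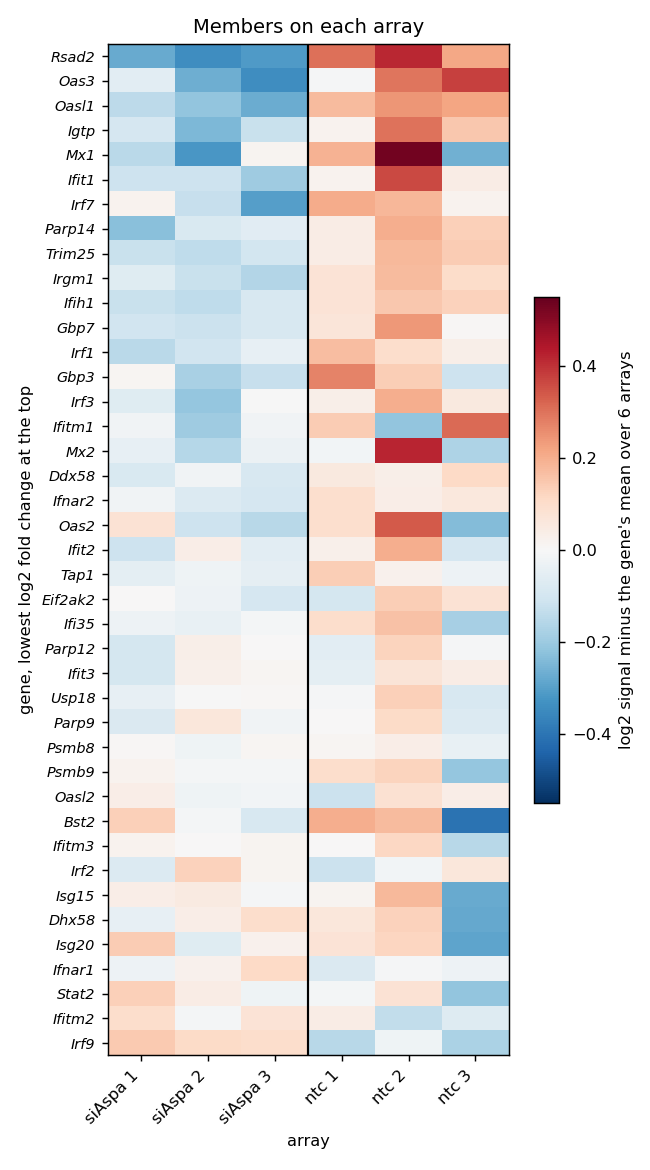
Log2 signal of each of the 41 members on each array minus its mean over the 6 arrays (colour), with siAspa arrays left of the line, ntc arrays right of it, and genes ordered by log2 fold change. Array ntc 2 is above the mean for most genes, whereas ntc 3 is above it for most genes at the top and below it for many at the bottom, among them Bst2, Isg15, Dhx58 and Isg20.

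The spread within groups was unequal for these genes. The SD was smaller over the siAspa than over the ntc arrays for 33 of 41 members (80.5%), against 54.5% of all genes and 56.9% of the genes above the median signal. The median SD of the members was 0.06 in siAspa and 0.11 in ntc cells. Over all genes it was 0.10 and 0.10, and over the genes above the median signal 0.08 and 0.09. The SD was smaller over the siAspa arrays for 8 of 13 signalling genes and 25 of 28 effectors. For 22 of 41 members ntc 3 was the lowest ntc array (35.3% of genes), and for 17 of 41 ntc 2 was also the highest (17.9% of genes). Isg15 had an SD of 0.03 in siAspa and 0.23 in ntc cells, and Ifitm3 had 0.01 and 0.13, while their means differed by 0.05 and 0.02. With 3 arrays a group no test of the spread was made.

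**Figure D4:**
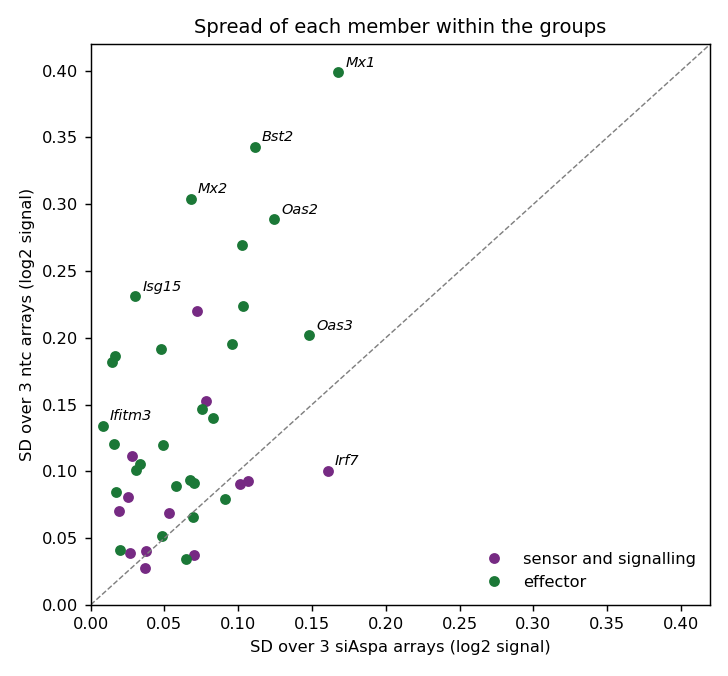
SD of each member over the 3 siAspa arrays (x axis) against its SD over the 3 ntc arrays (y axis), both in log2 signal, with colours for the 2 classes and a dashed line of equal spread. Of the 41 points 33 lie above the line, the highest on the y axis are Mx1, Bst2, Mx2 and Oas2, and Irf7 is the point farthest below the line.

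Many of these genes lie in clusters, and the log2 fold changes of neighbours were set side by side. With genes joined when no more than 150 kb apart, the members and the other pathway genes formed 12 such groups. Differences between neighbouring members were compared between siAspa and ntc cells for 12 pairs by exact permutation tests (two-sided), which with 3 arrays against 3 cannot give a p under 0.1. The log2 signal of Oasl2 minus that of Oasl1 on chromosome 5 was larger by 0.42 in siAspa cells without overlap (exact p = 0.1, 0.2 after adjustment over the 12 pairs). The same p was found for Oas2 minus Oas3 (0.32), Ifit3 minus Ifit1 (0.25), Ifitm2 minus Ifitm1 (0.27), Parp14 minus Parp9 (-0.23) and Ifnar2 minus Ifnar1 (-0.20). Of these, the row of Ifitm1 was dim, with a mean signal of 4.89. Without ntc 3 the difference for Oas2 and Oas3 was 0.09 and that for Ifitm2 and Ifitm1 was 0.14, and without ntc 2 that for Ifit3 and Ifit1 was 0.16, while that for Oasl2 and Oasl1 lay between 0.38 and 0.45 whichever array was left out. By contrast, the pair Gbp7 and Gbp3 differed by -0.01 (exact p = 1), and Psmb9, Tap1, Psmb8 and Tap2 in the antigen processing cluster spanned 0.11. Rsad2 and its neighbour Cmpk2, a nucleotide kinase of mitochondria, had -0.62 and -0.34.

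**Figure D5:**
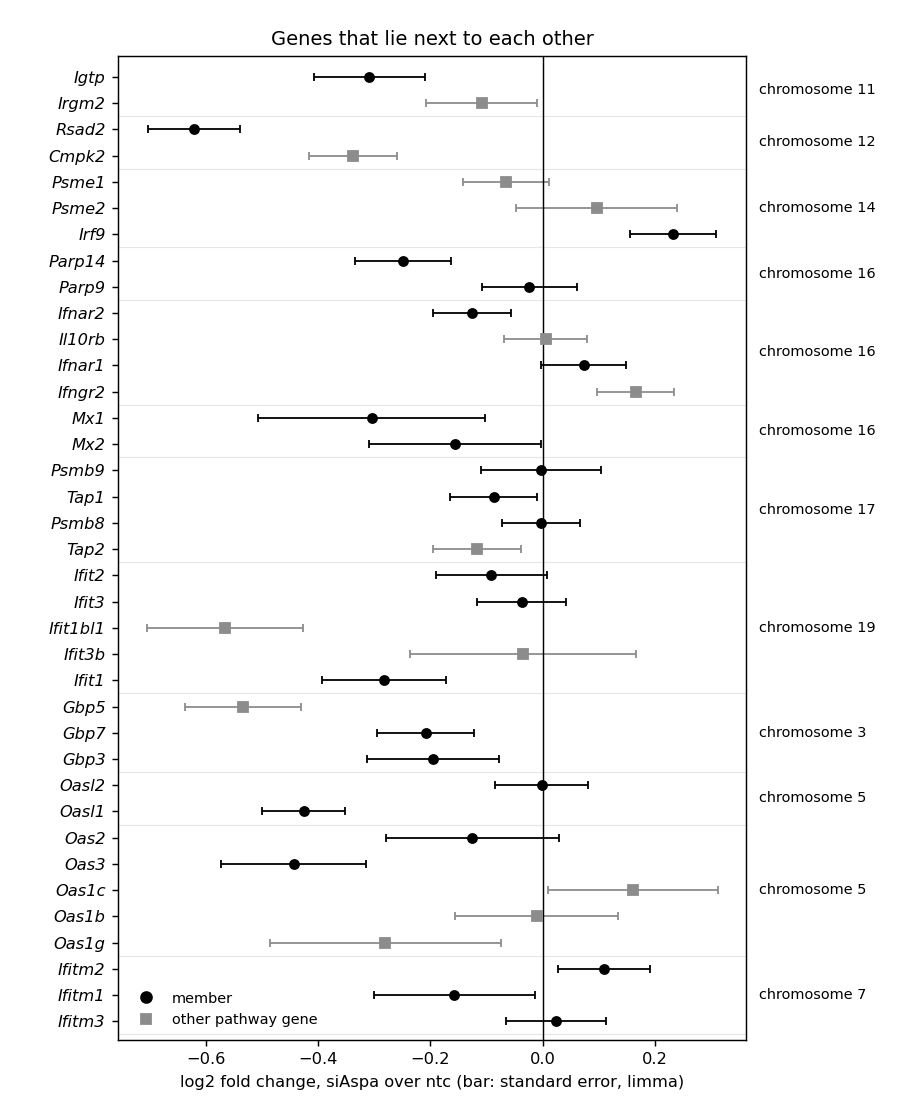
Log2 fold change, siAspa over ntc (x axis), of interferon genes that lie within 150 kb of each other, in groups along a chromosome, with black circles for members, grey squares for other pathway genes and bars for the standard error from limma. The genes of the Oas, Oasl and Ifit groups are spread over 0.60, 0.42 and 0.53 log2 units, and those around Psmb8 over 0.11. The lowest Ifit gene, Ifit1bl1 (-0.57), and the highest Oas gene, Oas1c (0.16), are not members. Ifit1bl1 has a mean signal of 4.75, below the median of every array.

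Of 85 further genes of interferon production, signalling and response, 77 were measured and the others were not analysed here. With limma 0 of the 77 passed in either direction, and the median log2 fold change was -0.05. On the negative side 6 had an unadjusted p under 0.05, and on the positive side 2. Background values here were 6.17% and 6.87% of genes (8.57% and 8.91% of those above the median signal, where 65 of the 77 lay). The siAspa arrays lay below the ntc arrays for 13 and above them for 5. Genes at large did so in 9.99% and 12.6% of cases (13.3% and 16.5% above the median signal). The smallest p was found for Erap1, which trims peptides for antigen presentation (log2 fold change -0.55, adjusted p = 0.098). Cxcl9, a T-cell chemokine induced by interferon gamma, had 9.75, 9.47 and 9.27 on the siAspa arrays, against 10.68, 10.55 and 10.20 on the ntc arrays. The groups did not overlap, and the log2 fold change was -0.98 (adjusted p = 0.0998). The chemokine Ccl5 had 11.49, 11.46 and 11.11 on the siAspa arrays, against 12.17, 11.99 and 11.98 on the ntc arrays. It too showed no overlap (log2 fold change -0.69, adjusted p = 0.108). Gbp5 (-0.53), Cmpk2 (-0.34) and Ifit1bl1 (-0.57) followed, at adjusted p of 0.122, 0.168 and 0.193 (limma). The row of Ifit1bl1 was dim, with a mean signal of 4.75. None of the 7 ligand genes measured was called either, with log2 fold changes of 0.15 for Ifna1 and 0.20 for Ifna4. The mean signals of these 2 rows were 8.20 and 8.12. Every siAspa array lay above every ntc array for Ifna1, as for 12.6% of all genes, while the arrays of Ifna4 overlapped. Ifna2, Ifnb1, Ifne, Ifng and Ifnk lay between -0.13 (Ifnb1) and 0.12 (Ifna2), and their mean signals of 4.38 to 5.11 were below the median of every array, so that these values are those of dim rows.

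The HIN-200 family, whose interferon-inducible proteins bind DNA, crosses this set. Of its 12 listed genes 9 were measured and 1 passed the test, Ifi208, with 6.03, 5.73 and 5.99 on the siAspa arrays, against 7.87, 8.23 and 7.50 on the ntc arrays. It was lower on every siAspa array (log2 fold change -1.95, adjusted p = 0.0325, limma), and Ifi213 had -1.37 with an adjusted p of 0.0765. Of all genes 0.0992% passed on the lower side. The 9 genes had a median log2 fold change of -0.22 and ran up to 0.16 (Ifi214), with 7 negative and 2 positive. At an unadjusted p under 0.05, 3 were on the negative and 0 on the positive side, against 6.17% and 6.87% of genes. In 3 of the 9 the signal did not exceed the median of all rows. No interferon gene of the 41 members had a log2 fold change of the size seen for Ifi208 or Ifi213.

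Cell type markers were read beside these values. Of the 6 brown adipocyte markers Ucp1 passed (log2 fold change -1.72, adjusted p = 0.0343) and 5 had an unadjusted p under 0.05 on the negative side, and their summed signal (log2 of the sum) was 11.2 to 11.5 on siAspa and 12.5 to 12.9 on ntc arrays. For the 7 general adipocyte markers this was 14.5 to 14.7 on siAspa and 14.8 on ntc arrays, with 4 at an unadjusted p under 0.05 on the negative side. The 8 myeloid markers had a summed signal of 9.03 to 9.05 on siAspa and 8.84 to 8.99 on ntc arrays, with 1 (Cd68) at an unadjusted p under 0.05 on the positive side, and 5 of them (Adgre1, Itgam, Lyz2, Mrc1 and Ptprc) did not exceed the median signal of all rows. Of the other marker lists (preadipocyte and fibroblast, plasmacytoid dendritic, lymphocyte, endothelial) 0 genes passed with limma, while 1 (Pdgfra) had an unadjusted p under 0.05 on the negative side and 3 (Cd34, Tcf4 and Tek) on the positive side. Over all genes 6.17% had an unadjusted p under 0.05 on the negative and 6.87% on the positive side. Among genes above the median signal these shares were 8.57% and 8.91%. Without detection calls in the data no marker can be called absent. The part of these markers in the values of the interferon genes was not tested.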

How the data were processed

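RNA of 6 cultures was hybridized to Affymetrix Mouse Gene 2.0 ST arrays. The authors deposited log2 signals after RMA, a background correction followed by quantile normalization and 1 summary value per probe set. CarmaWeb is the software that the paper names, and its version is not given in the sources used here. The paper lists its arrays under a different series, and its link to these rests on platform, cell line, day and knock-down, so that CarmaWeb and its test are taken over on that basis. Equalizing the arrays removes differences in total signal, background signal compresses the fold changes of dim genes, and no depth exists for arrays, whose number limits the precision.

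All 41345 rows were fitted with lmFit and eBayes of limma 3.58.1 (R 4.3.3), siAspa over ntc, without a block. The paper names a moderated t-test with Benjamini-Hochberg correction and mentions no block. It reports more genes called in each direction than the 22 lower and 42 higher genes found here, and more of them lower than higher. The balance found here depended on the fit. It was 321 lower and 243 higher with single-gene rows only, and 33 and 48 with array weights. The two-sided p-values of all rows were corrected together (Benjamini-Hochberg), and 0.05 was the threshold. The fit was tested on simulated data. Genes were named through the platform annotation and updated through RefSeq (GRCm38.p6), which also gave promoter sequences and gene order. The members, the lists of other genes and the rule for naming were chosen with earlier results of these data known, so that no list was given a p.

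Values on each array are given for the 6 members with the lowest and the 6 with the highest log2 fold change, the 6 with the smallest unadjusted p, and the brightest member of each role, 26 in all. Of the other pathway genes, those that passed and otherwise up to 6 with the smallest p are named. The alternatives were a replicate block, a robust prior that follows the signal, subtracted array medians, repeated quantile normalization, rows above the median signal only, single-gene rows only, array weights, the mean over all rows of a gene, and leaving out each array in turn. The counts of arrays that do not overlap without 1 array, the differences between neighbours without 1 array, and the background among genes above the median signal, were chosen after seeing the data.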

Additional observations from a re-analysis of the deposited data

How the results depend on the processing

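The count of members called lower in siAspa cells moved with the fit. It was 0 with all rows, 2 with the robust prior, 2 with rows above the median signal only, 2 with single-gene rows only (Rsad2 and Oasl1 each time) and 1 with array weights (Rsad2), while the share of all genes called lower was 0.816%, 2.25%, 1.45% and 0.149% in these 4 settings. With the replicate block 0 members were called lower and 0 higher, with 10 at an unadjusted p under 0.05 on the negative side, against 5.48% of genes, and at the adjusted p 0 genes at large were called in either direction. Same-numbered siAspa and ntc arrays deviated from their group means with correlations of 0.002, 0.02 and 0.003 over all rows. Over the members these were 0.175, -0.125 and -0.013. Such values cannot decide whether the replicate numbers pair the arrays. No member was called higher under any setting, and none was called lower when any 1 array was left out, where at most 1 gene at large was called in each direction. The median log2 fold change of the members lay between -0.13 (without ntc 3) and -0.014 (without ntc 2) when single arrays were left out. The difference between the signalling and effector medians lay between -0.12 (without ntc 2) and 0.051 (without ntc 3) in the same fits. Of the 41 members 25 kept the sign of their log2 fold change under every setting, and the 16 others had values within 0.16 of 0. Bst2, Oasl2, Psmb8 and Psmb9 turned sign when array medians were subtracted or quantile normalization was repeated, while these moved the median of all genes by under 0.1.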
